A study of Mus musculus with 14 samples.

Results

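Open chromatin was compared across the genome between epidermal stem cells (EpdSC) and hair follicle stem cells (HFSC) of young mice, with 1 ATAC-seq library for each population. ATAC-seq inserts sequencing adapters into accessible DNA with a transposase, so that the number of reads over a stretch of genome reflects how open it is. The deposited table of each library gives counts in 10923515 windows of 500 bases that overlap one another. The comparison used the 5267565 of them that start at a multiple of 500 on chromosomes 1 to 19 and X, which do not overlap, and divided each count by the library's sum over those windows to give counts per 1000000 (CPM). It was made over the 49554 windows that reached 4 CPM in at least 1 of the 2 young libraries. This choice used the higher of the 2 levels, so it took in windows that passed through 1 population alone. It is therefore not blind to the difference, and the shares past 4-fold below hold for windows chosen this way.

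The series holds 14 samples from the back skin of female mice aged 2 months (young) or 24 months (aged), which was digested with trypsin and sorted by flow cytometry. Both populations were lineage-negative and high for integrin alpha 6. EpdSC were CD34- Sca1+ and HFSC were CD34+ Sca1-. The labels name no allele or agent for any group and give 2 different strain names, so no strain is stated here. Besides the young EpdSC and young HFSC libraries, 1 aged EpdSC and 1 aged HFSC ATAC-seq library and 8 RNA-seq libraries (2 of each population at each age) were used as separate readouts. The labels do not say how many animals went into a library or whether replicate RNA libraries came from separate animals, so a p-value for RNA reflects no more than the scatter among the libraries, which may be technical. With 1 ATAC-seq library per population there is no replicate check on any open chromatin difference and no p-value is given for one. Intervals beside ratios and shares are exact 95% intervals (Clopper-Pearson). Those of ratios cover the error of counting reads alone, and are too narrow where several reads come from 1 DNA fragment. Those of shares treat windows, regions or genes as independent, which neighbouring windows are not. They are therefore too narrow as well, and neither kind measures the spread between libraries or animals. In sorted bulk samples, fewer cells with an open site and less opening per cell cannot be told apart.

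Hair follicle stem cells rest in the bulge of the follicle and regrow hair in cycles, while epidermal stem cells sit in the basal layer between follicles and renew the barrier continuously. Open chromatin is found at the starts of genes, which many cell types share, and at enhancers, stretches of DNA away from the start that bind transcription factors and differ more between cell types. Gene starts in the mouse fall broadly into those rich in CG pairs, typical of genes used in many tissues, and those poor in them, typical of genes used in few.

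The depth of the libraries bears on every value below. The summed counts over the windows used were 37322834 in young EpdSC, 26169738 in young HFSC, 22933001 in aged EpdSC and 8243611 in aged HFSC, so that 4 CPM stood for 149 counts in young EpdSC and 105 in young HFSC. The windows compared held 29.0% of the counts in young EpdSC, 30.4% in young HFSC, 30.6% in aged EpdSC and 15.6% in aged HFSC. The aged HFSC library therefore stood apart from the other 3 in both depth and the share of its counts in open windows, and the comparison at 24 months is given with and without a correction for this.

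Markers of the bulge were more open in HFSC and markers of differentiating epidermis in EpdSC, while starts of interfollicular basal markers leaned to neither. Of the bulge markers, 5 of 7 gene starts with counts were at least 2-fold higher in young HFSC and none in young EpdSC, and 45 of the 79 windows at these genes were at least 4-fold higher in HFSC. Of the suprabasal markers, which mark cells leaving the basal layer, 5 of 7 starts were 2-fold higher in EpdSC and none in HFSC, and their summed level was 40.7 CPM in EpdSC against 21.2 CPM in HFSC. Of the interfollicular basal markers, the layer EpdSC belong to, 1 of 5 starts was 2-fold higher in EpdSC and none in HFSC, with a median log2 ratio of -0.01 and sums of 103.9 CPM in EpdSC and 110.1 CPM in HFSC. At these genes 15 of 71 windows (21.1%) were 4-fold higher in EpdSC and 5 (7.04%) in HFSC. Over all windows compared, 12.4% were 4-fold higher in EpdSC and 13.8% in HFSC. Over all starts tested, 10.7% were 2-fold higher in EpdSC and 7.74% in HFSC, and the marker counts are to be read beside these shares. The 8 upper follicle and sebaceous starts summed to 60.4 CPM in EpdSC and 50.1 CPM in HFSC. Among markers of cells outside the keratinocyte lineages, the 8 T cell starts summed to 4.13 CPM in EpdSC and 2.75 CPM in HFSC, and the 6 Langerhans and myeloid starts to 10.3 and 7.87 CPM. The defining gene Ptprc had 0.429 and 0.611 CPM and Cd3e 0.589 and 0.306 CPM at the start. The 7 fibroblast starts summed to 8.33 CPM in EpdSC and 14.7 CPM in HFSC, the 5 endothelial starts to 7.15 and 12.4 CPM, and the 6 melanocyte starts to 33.3 and 35.2 CPM. The 7 pericyte and smooth muscle starts summed to 20.7 CPM in EpdSC and 22.4 CPM in HFSC. The 6 Merkel cell starts summed to 19.4 and 9.63 CPM, with 1 of 7 windows 4-fold higher in EpdSC and 5 in HFSC, and the 2 Schwann cell starts to 11.8 and 4.85 CPM, with 10 of 31 windows higher in EpdSC and none in HFSC. The part of such cells in the differences below was not tested.

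The sequences that frame the comparison are the 250 bases before the start of genes whose starts were open in 1 population or in both. They are shown 5′ to 3′ on the gene's own strand, from RefSeq on GRCm38.p6, with every CG pair in capitals, because the content of CG pairs differed between starts that were alike and starts that were not. Angptl7, Cd34 and Grem1 had starts higher in HFSC, Klk11, Mmp3 and Wnt3 had starts higher in EpdSC, and Cltc, the clathrin heavy chain used by all cells, had a start at 32.2 CPM in young EpdSC and 33.0 CPM in young HFSC.
Angptl7, chr4:148500463-148500712, minus strand: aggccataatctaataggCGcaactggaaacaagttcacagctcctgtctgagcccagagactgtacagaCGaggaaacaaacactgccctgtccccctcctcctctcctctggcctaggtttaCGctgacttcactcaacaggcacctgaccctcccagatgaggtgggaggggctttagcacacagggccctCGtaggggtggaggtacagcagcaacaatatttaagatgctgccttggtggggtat
Cd34, chr1:194938571-194938820, plus strand: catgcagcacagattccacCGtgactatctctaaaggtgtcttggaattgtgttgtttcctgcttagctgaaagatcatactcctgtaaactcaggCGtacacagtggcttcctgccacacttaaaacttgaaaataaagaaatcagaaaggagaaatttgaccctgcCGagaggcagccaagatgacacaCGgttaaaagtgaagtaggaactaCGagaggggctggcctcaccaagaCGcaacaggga
Grem1, chr2:113758649-113758898, minus strand: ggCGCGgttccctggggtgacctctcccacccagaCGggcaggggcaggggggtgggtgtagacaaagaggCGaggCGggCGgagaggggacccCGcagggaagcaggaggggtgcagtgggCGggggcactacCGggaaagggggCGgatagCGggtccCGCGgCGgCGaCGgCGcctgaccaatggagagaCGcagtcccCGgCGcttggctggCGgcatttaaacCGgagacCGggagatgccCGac
Klk11, chr7:43774367-43774616, plus strand: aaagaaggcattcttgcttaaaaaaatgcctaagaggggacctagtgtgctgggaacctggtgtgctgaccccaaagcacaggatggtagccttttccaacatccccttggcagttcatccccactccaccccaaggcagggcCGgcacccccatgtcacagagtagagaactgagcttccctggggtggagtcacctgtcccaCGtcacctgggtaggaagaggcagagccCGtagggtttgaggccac
Mmp3, chr9:7445572-7445821, plus strand: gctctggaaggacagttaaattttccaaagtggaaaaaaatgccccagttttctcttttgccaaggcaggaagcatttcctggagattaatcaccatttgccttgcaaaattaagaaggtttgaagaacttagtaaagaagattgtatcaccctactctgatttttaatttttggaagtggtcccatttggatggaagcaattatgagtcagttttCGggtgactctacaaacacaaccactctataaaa
Wnt3, chr11:103773925-103774174, plus strand: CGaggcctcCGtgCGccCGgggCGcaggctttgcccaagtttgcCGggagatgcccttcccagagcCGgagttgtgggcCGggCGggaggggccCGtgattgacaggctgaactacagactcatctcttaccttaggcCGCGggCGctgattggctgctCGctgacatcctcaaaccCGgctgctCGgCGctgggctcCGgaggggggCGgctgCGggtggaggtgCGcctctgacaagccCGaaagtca
Cltc, chr11:86757568-86757817, minus strand: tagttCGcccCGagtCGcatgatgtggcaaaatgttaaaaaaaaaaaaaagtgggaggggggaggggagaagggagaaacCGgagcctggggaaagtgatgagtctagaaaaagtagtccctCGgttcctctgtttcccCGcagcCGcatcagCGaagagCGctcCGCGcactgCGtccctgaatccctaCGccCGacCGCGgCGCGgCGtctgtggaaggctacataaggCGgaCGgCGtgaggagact

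Angptl7 held 4 CG pairs in these 250 bases, Cd34 held 6, Klk11 held 3 and Mmp3 held 1, while Grem1 held 24, Wnt3 22 and Cltc 22. Starts poor in CG pairs were the majority among those that differed, as counted below, and Grem1 and Wnt3 are examples of the CG-rich ones that differed too.

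Windows that differed by less than 2-fold outnumbered those that differed by more. Of the 49554 windows, 21388 reached 4 CPM in both young libraries, 16081 in EpdSC alone and 12085 in HFSC alone, and 55.7% (55.3 to 56.2%) differed by less than 2-fold. At least 4-fold higher in EpdSC were 6150 windows (12.4%), and at least 4-fold higher in HFSC were 6855 (13.8%). The median log2 ratio of EpdSC over HFSC was 0.04 over all windows compared and -0.07 over those open in both.

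The HFSC windows reached further. A 16-fold difference was met by 821 windows (1.66%) toward EpdSC and by 3081 (6.22%) toward HFSC, and a 64-fold difference by 11 and 477. The median log2 ratio was 2.97 among the windows 4-fold higher in EpdSC and -3.78 among those 4-fold higher in HFSC. In their own population the former had a median of 5.63 CPM and the latter 6.30 CPM, and in the other population 0.726 and 0.482 CPM. The highest reached 21.6 CPM in EpdSC and 32.1 CPM in HFSC. Few were empty in the other population: 2 of the EpdSC windows had no count in HFSC, and 18 of the HFSC windows had none in EpdSC.

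The balance between the populations depended on how open a window was. Among windows more than 1 kb from a gene start whose higher level lay between 4 and 6 CPM, 20.7% were 4-fold higher in EpdSC and 19.2% in HFSC. Among those at 20 CPM or more (n = 306), 0.980% were higher in EpdSC and 25.5% in HFSC. With a minimum of 2 CPM in place of 4, more windows were 4-fold higher in EpdSC (16336) than in HFSC (15198), and with a minimum of 8 CPM fewer (1151 against 2124). Which population had more windows of its own was therefore set by the minimum, while the excess of HFSC windows among the most open distal sites was seen in each class of level from 6 CPM up. The move toward HFSC with level was not confined to distal sites. From 4 to 6 CPM up to 20 CPM or more, the median log2 ratio went from 0.30 to -0.71 at distal windows. Within 1 kb of a start it went from 0.27 to -0.53. The reason for this move was not tested.

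The single windows with the largest ratios lay both inside genes and between them. The window chr11:54024501-54025000, inside Slc22a4, an organic cation transporter, had 165 counts in young EpdSC and 0 in young HFSC, with 91 in aged EpdSC and 1 in aged HFSC. Counted against a floor of 3 counts, it was at least 38.6-fold higher in young EpdSC. The window chr14:59673001-59673500, inside Atp8a2, had 307 counts in young HFSC and 0 in young EpdSC, with 54 and 6 in the aged pair, and was at least 146-fold higher in young HFSC. In both windows the aged libraries stood on the same side as the young ones. The third in order toward EpdSC, chr13:53733001-53733500, lay 260221 bases from Msx2 with 236 counts in young EpdSC against 1 in young HFSC, and the window chr5:77242001-77242500, 22994 bases from Rest, had 459 counts in young HFSC against 1 in young EpdSC.

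The populations differed away from gene starts far more than at them. Of the windows compared off chromosome 18 (n = 47967), 34.2% had their centre within 1 kb of a start, against 2.17% of all windows in the genome, and of the windows under 2-fold 52.2% did. Of the windows 4-fold higher in EpdSC 7.83% (7.16 to 8.54%) were that close, and of those 4-fold higher in HFSC 4.08% (3.61 to 4.58%). Over 20 kb from any start were 34.9% of all windows compared, 47.0% of the EpdSC windows and 62.4% of the HFSC windows. The median distance was 7665.5 bases over all windows compared, 17870.5 bases for EpdSC windows and 31816.5 bases for HFSC windows. The table of starts holds a start for 79.9% of the coding genes on these chromosomes and none on chromosome 18, so these distances are upper limits.

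**Figure D1:**
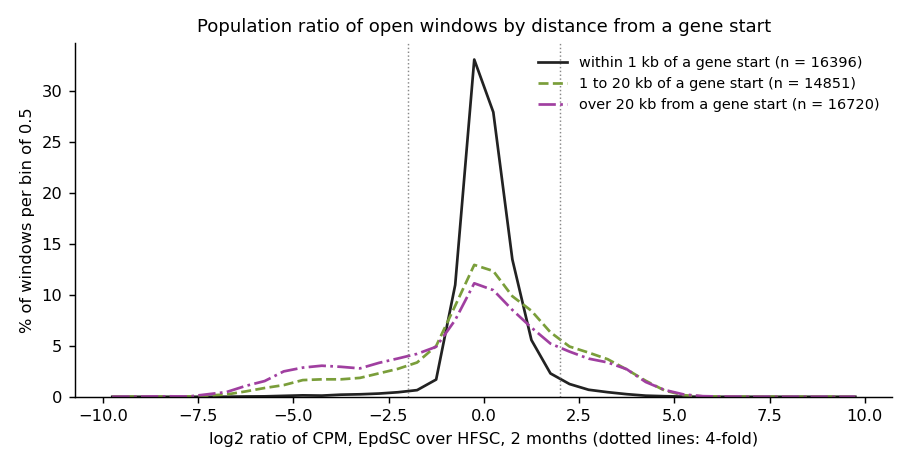
Distribution of the log2 ratio of CPM (EpdSC over HFSC at 2 months, x axis) in percent of windows per bin of 0.5 (y axis), with 1 line for each class of distance to the nearest gene start and dotted lines at 4-fold. Windows within 1 kb of a start form a narrow peak around equal levels, and windows over 20 kb away form a wide distribution with a longer tail toward HFSC.

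The share of windows past 4-fold grew with distance, and the share higher in HFSC grew for longer. Within 1 kb of a start, 2.83% of windows were 4-fold higher in EpdSC and 1.64% in HFSC. From 1 to 5 kb the shares were 16.5% and 10.3%, and from 5 to 20 kb 18.8% and 17.5%. From 20 to 100 kb they were 17.7% and 22.7%, and beyond 100 kb 13.7% (12.7 to 14.8%) and 30.0% (28.7 to 31.4%). The EpdSC share was thus highest at 5 to 20 kb and the HFSC share beyond 100 kb. Chromosome X held 619 of the windows compared, of which 3.07% were higher in EpdSC and 7.59% in HFSC, both below the range of the autosomes (10.2 to 14.4% and 9.38 to 18.96%). Of those X windows 51.5% lay within 1 kb of a start.

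Windows of the same direction lay together. Joining windows of 1 direction that were at most 1 window apart gave 4429 regions higher in EpdSC and 4486 higher in HFSC. Of these, 70.4% and 59.1% were a single window, and 6.68% and 8.87% held 3 or more. The next region along the chromosome had the same direction in 95.1% of pairs less than 5 kb apart (n = 893), in 83.4% at 5 to 20 kb, in 71.8% at 20 to 100 kb, in 57.7% at 100 to 500 kb and in 52.6% (49.7 to 55.5%) beyond that. The totals of the 2 directions alone give 50.002%, which the last interval includes.

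**Figure D2:**
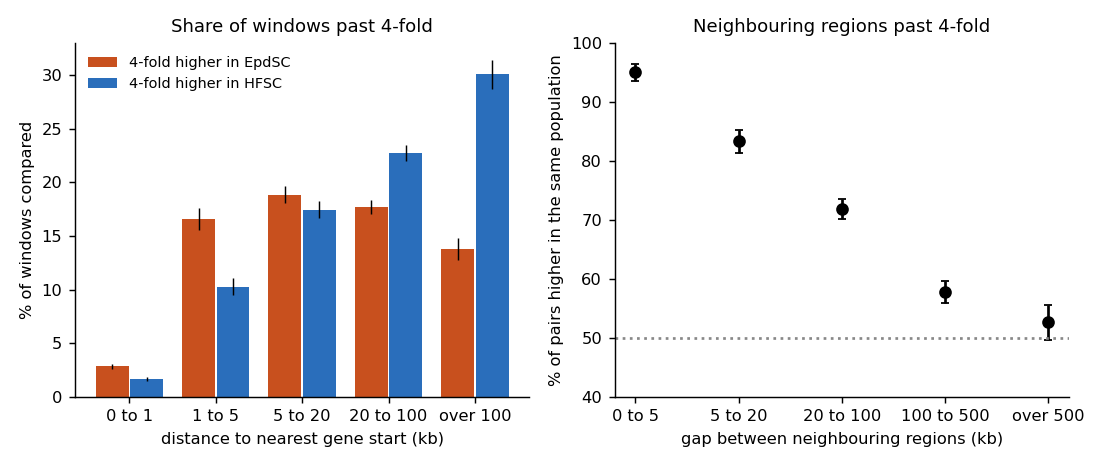
Left, percent of windows compared that were 4-fold higher in EpdSC or in HFSC (y axis) in 5 classes of distance to the nearest gene start in kb (x axis). Bars are 95% intervals that treat windows as independent. Right, percent of neighbouring region pairs with the same direction (y axis, from 40 to 100%) by the gap between them in kb (x axis), falling from 95.1% toward the dotted line at 50.002% that the totals alone give.

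The longest region higher in EpdSC overlapped part of Atf3, a stress-induced transcription factor of the ATF and AP-1 group, and reached beyond 1 end of the gene. It ran over 21 windows, chr1:191166001-191176500, and summed to 172 CPM in young EpdSC (6406 counts), 12.8 CPM in young HFSC (336 counts), 268 CPM in aged EpdSC and 18.1 CPM in aged HFSC. Both EpdSC libraries lay far above both HFSC libraries, and the young ratio was 13.4-fold (12.0 to 15.0). The region with the next most windows, 8, lay at Nr4a1, and 4 regions of 6 windows followed, at Fos, Plbd1 and Acsbg1 and near Poc1a, of which the last spanned 4000 bases and the others 3000. Nr4a1 and Fos are, like Atf3, induced early after stimulation. The region at Nr4a1, an orphan nuclear receptor (chr15:101272001-101276500), had 43.3 CPM in young EpdSC and 3.29 CPM in young HFSC, with 68.1 and 4.97 CPM in the aged pair, a young ratio of 13.2-fold. The region at Fos, the partner of Jun in AP-1 (chr12:85476001-85479000), had 49.4 and 5.58 CPM in the young pair and 80.5 and 9.34 CPM in the aged pair, a young ratio of 8.85-fold.

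Other long EpdSC regions lay at Plbd1 (chr6:136659501-136662500, 8.03-fold), at Acsbg1, an acyl-CoA synthetase (chr9:54645001-54648000, 7.61-fold), and 6979 bases from Poc1a (chr9:106357501-106361500, 4.77-fold). In these regions the young HFSC library still had 6.15, 6.42 and 11.3 CPM.

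The longest regions higher in HFSC held 6 windows each and were steeper. The region chr2:133076501-133079500, 130465 bases from Fermt1, had 73.1 CPM in young HFSC and 0.884 CPM in young EpdSC, with 42.5 and 1.70 CPM in the aged pair, a young ratio of 82.7-fold (58.7 to 120). The region chr2:11441001-11444000, 27430 bases from Pfkfb3, a regulator of glycolysis, had 54.9 and 0.938 CPM, a ratio of 58.6-fold (41.9 to 84.5). The region chr3:132858501-132861500, 16813 bases from Tbck, had 67.4 and 2.28 CPM, a ratio of 29.6-fold. Of the 6, only 2 lay inside a coding gene: chr4:114611001-114614500 in Trabd2b, a gene for a metalloprotease known to act on Wnt proteins (20.8-fold), and chr7:117441001-117444000 in Xylt1, a xylosyltransferase of proteoglycan synthesis (19.3-fold). The other lay 23749 bases from Slc38a9 (chr13:112762501-112765500, 14.8-fold). In all 6 the aged HFSC library, at 22.1 to 42.5 CPM, was above the aged EpdSC library, at 1.35 to 4.80 CPM.

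The aged pair of libraries, which had no part in choosing the windows, mostly showed the same directions. Of the 6150 windows 4-fold higher in young EpdSC, 100% had a ratio on the same side at 24 months, and 99.9% were at least 2-fold higher in aged EpdSC. Of the 6855 windows 4-fold higher in young HFSC, 98.8% kept the side and 90.8% were at least 2-fold higher in aged HFSC. At least 4-fold at 24 months were 92.4% of the EpdSC windows and 68.7% of the HFSC windows, and 81.5% and 22.9% were 4-fold and also reached 4 CPM in at least 1 aged library. The median log2 ratios at 24 months were 3.01 and -2.76. Over all 49554 windows the log2 ratios at the 2 ages had a Pearson r of 0.935 and a Spearman rho of 0.914, a description over windows that share libraries and depth and are no replicates. No window was called 4-fold in opposite directions at the 2 ages.

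The aged ratios were displaced toward EpdSC. The median log2 ratio of windows open in both populations was 0.80 at 24 months against -0.07 at 2 months. Among the 41703 windows that reached 4 CPM at 24 months, 10845 (26%) were 4-fold higher in EpdSC and 1697 (4.07%) in HFSC. When the aged ratios were scaled to a median of 1, these shares were 12.1% and 5.35%, and 99.9% of the young EpdSC windows and 99.9% of the young HFSC windows kept their side. After this scaling 60.4% and 86.9% of them were at least 4-fold at 24 months. The low share of aged HFSC counts in open windows moved with this displacement, and its part in it was not tested.

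**Figure D3:**
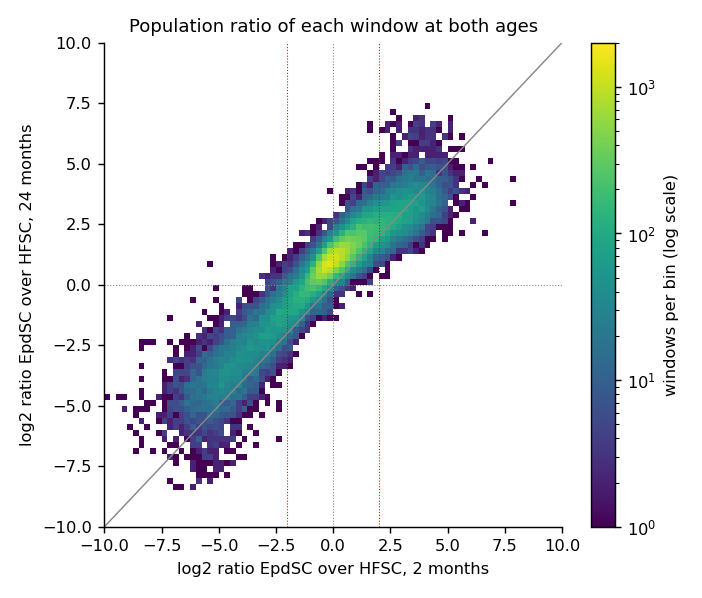
Log2 ratio of EpdSC over HFSC in each window compared at 2 months (x axis) and at 24 months (y axis), as the number of windows per bin on a log colour scale. The windows follow the diagonal and most lie above it, as the median of 0.80 among windows open in both at 24 months gives.

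At gene starts the populations were more alike. The level at a start was the sum over windows centred within 1 kb of it, taking the most open start of each gene, and 23372 of 26794 genes had at least 20 counts over the young pair. Of these, 2493 (10.7%) were at least 2-fold higher in EpdSC, 1810 (7.74%) in HFSC, and 81.6% differed by less. The median window of the genome held 0.0804 CPM in young EpdSC and 0.0764 in young HFSC. A sum of 20 counts over the windows of a start is near that background. These shares, and the values over starts at 24 months, therefore take in starts barely open in either population. At 24 months 81.7% of the EpdSC starts and 84.7% of the HFSC starts were on the same side, and with the aged ratios scaled to a median of 1 these shares were 68.6% and 96.3%. The Pearson r between the ages over starts was 0.482. Among starts with at least 100 counts, where counting error is smaller, 1556 were 2-fold higher in EpdSC and 601 in HFSC, and 99.4% and 87.0% of them were on the same side at 24 months. These last 2 shares are without scaling, so the displacement of the aged ratios toward EpdSC bears on both.

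The start furthest toward HFSC was that of Angptl7, a secreted angiopoietin-like protein, and the start of Cd34, the surface protein used in the sort, was among the next. The Angptl7 start had 0.938 CPM in young EpdSC, 27.5 CPM in young HFSC, 1.40 CPM in aged EpdSC and 11.5 CPM in aged HFSC, so both HFSC libraries lay above both EpdSC libraries. Its young ratio was 29.3-fold (20.9 to 42.4). The Cd34 start had 0.643, 13.8, 0.741 and 8.25 CPM in the same order, a young ratio of 21.4-fold (14.1 to 33.8). The others of the 10 were Slc22a22, an organic anion transporter (26.7-fold), AA536875 (22.8-fold), Usp54, a ubiquitin-specific protease family member (21.2-fold), Wfdc3 (19.97-fold), Sgcd, delta-sarcoglycan (18.6-fold), Sh2d7 (15.9-fold), Rps23rg1 (15.2-fold) and Isx, an intestinal homeobox factor (15.1-fold). All 10 were also higher in aged HFSC than in aged EpdSC, with log2 ratios of EpdSC over HFSC from -3.44 to -2.45.

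The start furthest toward EpdSC was that of Tarm1, an immunoglobulin-family receptor, at 13.4 CPM in young EpdSC, 0.497 CPM in young HFSC, 16.9 CPM in aged EpdSC and 0.607 CPM in aged HFSC, a young ratio of 26.9-fold (15.6 to 50.9). Among the 10 furthest were 2 kallikreins, proteases of skin shedding: Klk9 had 28.2 against 1.41 CPM in the young pair (19.96-fold) and Klk11 had 17.6 against 1.30 CPM (13.5-fold). A further 3 were Skint genes, a rodent family expressed in the epidermis and known for selecting epidermal gamma delta T cells: Skint11 was 19.04-fold, Skint8 15.5-fold and Skint7 12.5-fold higher in EpdSC. The others were Ifi202b, an interferon-induced gene (17.2-fold), Mmp3, the protease stromelysin (15.3-fold), Cd80, a costimulatory ligand of T cells (15.3-fold), and Ttc9 (12.5-fold). All 10 were higher in aged EpdSC than in aged HFSC as well.

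RNA from the same populations was measured separately at these starts. Tested with edgeR's quasi-likelihood test and Benjamini-Hochberg adjustment, 2788 of 21464 genes (13%) were higher in young EpdSC and 2812 (13.1%) in young HFSC. Without the first young EpdSC library the count toward EpdSC was 1685. Of the 10 HFSC starts, 8 had RNA that was tested, and 7 of these were higher in HFSC RNA. Isx, at 0 to 0.395 CPM in all young libraries, did not pass. Of the 10 EpdSC starts, 9 were higher in EpdSC RNA and Cd80, at 0 to 0.329 CPM, did not pass. The highest adjusted p values among the 9 were those of Tarm1 (log2 fold change 2.99 ± 0.88 SE, adjusted p = 0.0269) and Klk9 (2.13 ± 0.67, adjusted p = 0.0352). Tarm1 no longer passed without any 1 of the 4 young libraries (adjusted p from 0.0647 to 0.139) or either aged EpdSC library (0.0509 and 0.0513), and Klk9 without the second library of either young population. Angptl7 RNA was at 338 and 463 CPM in the young HFSC libraries against 1.12 and 0.954 CPM in the young EpdSC libraries, and Klk11 RNA at 43.9 and 41.0 CPM in EpdSC against 0.366 and 0.354 CPM in HFSC.

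Starts that differed were mostly poor in CG pairs. Taking a ratio of observed to expected CG pairs of at least 0.6 over 300 bases as rich, 42.4% of all starts tested were rich, against 47.1% of those under 2-fold, 27.8% of those higher in EpdSC and 12.2% of those higher in HFSC. Read the other way, 13.4% of CG-poor starts were 2-fold higher in EpdSC and 11.8% in HFSC, against 7.00% and 2.23% of CG-rich starts. Among starts with at least 100 counts the shares were 22.0% and 10.4% for CG-poor and 6.67% and 1.64% for CG-rich starts, so the contrast was as large where counts were high.

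A loose form of the AP-1 binding site, TGANTCA with any base at N, was searched in the 300 bases around each start on both strands. This form was present in 7.87% of all 26794 starts. It was found in 11.5% of the starts higher in EpdSC, 9.83% of those higher in HFSC and 7.48% of all starts tested. Within CG-poor starts alone these shares were 14.7%, 10.4% and 10.45%. AP-1 was 1 of 18 motifs searched and was chosen for display after its values were seen. In CG-poor starts the KLF motif GGGTGTGGC was found in 2.11% of those higher in EpdSC, 1.01% of those higher in HFSC and 1.40% of all tested, and the TEAD motif GGAATG in 15.7%, 19.3% and 17.1%. Of the 10 starts furthest toward EpdSC, 3 held a match and of the 10 furthest toward HFSC none did. The 3 matches are shown with 10 bases before them on the gene's strand and the match in capitals, since they place the letters close to starts that were open in EpdSC.
Skint11, chr4:114163359-114163383, plus strand: tgccttggtgTGACTCAggtttact
Mmp3, chr9:7445766-7445792, plus strand: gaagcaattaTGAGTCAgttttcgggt
Cd80, chr16:38458881-38458907, plus strand: ggccacacccTGATTCAgaactctcac
They begin 15, 46 and 42 bases before the start in that order, and their base at N is C, G and T. A match describes letters in the sequence and is not a measured binding site.

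Genes whose RNA differed had starts that leaned the same way, by little. Among genes tested in both readouts (n = 13319), 2084 (15.6%) were higher in EpdSC RNA and 1940 (14.6%) in HFSC RNA. The median log2 ratio at the start was 0.35 for the former, -0.20 for the latter and 0.11 for the 9295 that did not pass. The start lay on the same side as the RNA in 74.5% (72.6 to 76.4%) of the EpdSC genes and 64.8% (62.6 to 66.9%) of the HFSC genes. Starts leaned to EpdSC without regard to RNA, with a median log2 ratio of 0.10 over all genes tested in both. The 2 shares thus have unlike baselines, and their difference is not a measure of closer agreement in EpdSC. A start at least 2-fold the other way was found in 0.672% and 2.11% of them. Across genes the 2 log2 ratios had a Pearson r of 0.456 and a Spearman rho of 0.305, a description over genes, which are not replicates.

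Windows counted over a whole gene and 10 kb on each side were also compared with RNA. The share of genes with RNA in the same direction was larger where a gene had more windows. For comparison, of the 2-fold starts with RNA tested, 39.0% of those toward EpdSC (n = 1264) and 48.0% of those toward HFSC (n = 569) had RNA higher in the same population. RNA was not tested for 49.3% of the 2-fold starts toward EpdSC and 68.6% of those toward HFSC, so the 2 shares cover unlike parts of them. Of the coding genes with RNA tested (n = 15773), 16.3% were higher in EpdSC RNA and 15% in HFSC RNA. Of genes with 1 window 4-fold higher in EpdSC and none higher in HFSC, 36.6% were higher in EpdSC RNA. The share was 44.5% with 2 such windows, 61.2% with 3 to 5 and 74.2% with 6 or more (69 of 93 genes). For windows higher in HFSC the shares higher in HFSC RNA were 36.9%, 43.0%, 64.3% and 82.0% (82 of 100 genes). Genes with no such window were higher in EpdSC RNA in 12.4% and in HFSC RNA in 12.4% of cases, and genes with windows of both directions in 28.9% and 28.9%. Of all coding genes, 18.1% had at least 1 such window and 1.51% had windows in both directions. Long genes have room for more windows, and length was not corrected for.

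The genes with the most HFSC windows were led by Trabd2b, with 23 of its 28 windows 4-fold higher in HFSC. Others among them were App, the amyloid precursor protein (17 of 27), Dennd1a (16 of 17), the overlapping genes Filip1l (15 of 24) and Cmss1 (15 of 27), Wwox (14 of 20) and Me3, a mitochondrial malic enzyme (14 of 23). RNA of Trabd2b was higher in HFSC, with a log2 fold change of EpdSC over HFSC of -6.13 ± 0.31 (SE), and so was that of Me3, at -4.26 ± 0.29, both past the edgeR threshold. RNA of Cmss1 did not pass (adjusted p = 0.995).

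Toward EpdSC the list was led by Atf3, with 23 of its 32 windows, and its neighbour Fam71a, with 18 of 18 windows in the same stretch. It went on with Ptgfrn, a prostaglandin receptor regulator (16 of 20), Rasa3, a Ras GTPase activator (15 of 21), Nsf, which borders Wnt3 (14 of 16), Mipep (13 of 16), Foxn3 (13 of 37) and Plbd1 (12 of 13). RNA of Plbd1, Rasa3 and Ptgfrn was higher in EpdSC, with log2 fold changes of 5.90, 4.18 and 3.08, while RNA of Fam71a and Mipep did not pass the edgeR threshold. Some genes carried windows of both directions: Lrmda had 7 toward EpdSC and 13 toward HFSC, Xylt1 6 and 13, Dgki 6 and 12, and Macrod2 7 and 9. In all, 33 coding genes had 3 or more in each direction.

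Lists of genes by role are given next beside the values over all features: 12.4% and 13.8% of windows were 4-fold higher in EpdSC and HFSC, 10.7% and 7.74% of starts 2-fold higher, and the median log2 ratio of all starts was 0.05. Windows at a list are those within its genes or 10 kb of them, each counted once. The lists were chosen with earlier results of these data known, so the lean of a list is a description and no independent check. Every bulge marker given earlier is also a member of the follicle or bulge lists below, which therefore add no separate support to it. Scaling the median ratio of shared windows to 1 adds 0.07 to every log2 ratio. 

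Transcription factors of the follicle stem cell were more open in HFSC. Of 243 windows compared at the 18 genes, 64 were 4-fold higher in HFSC and 7 in EpdSC, and of 13 starts tested, 4 were 2-fold higher in HFSC and none in EpdSC, with a median log2 ratio of -0.73. In RNA, 16 of 18 were higher in HFSC and 1 in EpdSC by the edgeR test. Lhx2, a homeobox factor of the bulge, had 8.92 CPM at its start in young EpdSC, 43.1 in young HFSC, 10.1 in aged EpdSC and 24.3 in aged HFSC. It had 7 of 12 windows higher in HFSC, and chr2:38360001-38360500 inside it had 0.0536 CPM in young EpdSC and 7.87 CPM in young HFSC, a ratio of 147-fold from 2 EpdSC counts (40.2 to 1221). Tbx1, a T-box factor, had 2.06, 25.3, 1.66 and 16.5 CPM at its start in the same order, and all 4 of its windows were higher in HFSC.

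Starts and windows did not always go together within that list. Runx1 had 31.7 CPM at its start in young EpdSC and 31.9 in young HFSC, yet 5 of its 14 windows were 4-fold higher in HFSC and its RNA was higher in HFSC (log2 fold change -3.40). Id2, a target of BMP signals, had 24.2 and 40.3 CPM at the start and 6 of 15 windows toward HFSC, and Gli2, the hedgehog effector, 10.2 and 18.2 CPM and 6 of 16. In Nfix 6 of 24 windows were higher in HFSC while its RNA did not pass (log2 fold change 0.04, adjusted p = 0.885). Nfia was the exception: 5 of its 19 windows were higher in EpdSC, as was its RNA (0.72, adjusted p = 0.0053), which did not pass without the second young EpdSC library (adjusted p = 0.0606).

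Surface, secreted and matrix genes of the bulge leaned further in the shares of 4-fold windows and 2-fold starts. They did not in the median start ratio or the share of genes higher in HFSC RNA. Of 165 windows at the 26 genes, 77 were 4-fold higher in HFSC and 6 in EpdSC. Of 20 starts, 9 were 2-fold higher in HFSC and none in EpdSC (median log2 ratio -0.53), and 22 of 26 genes were higher in HFSC RNA. All 13 windows at Lgr5, the receptor that marks cycling follicle stem cells, were higher in HFSC. The window chr10:115456001-115456500 inside it had 0.295 CPM in young EpdSC, 10.4 in young HFSC, 0.174 in aged EpdSC and 7.28 in aged HFSC, a young ratio of 35.1-fold (19.3 to 71.2). Grem1, a secreted BMP inhibitor, had 1.80 CPM at its start in young EpdSC, 24.7 in young HFSC, 2.44 in aged EpdSC and 14.8 in aged HFSC, and all 5 of its windows were higher in HFSC. Postn, the matrix protein periostin, had 2.09, 14.8, 1.05 and 7.28 CPM at its start, with all 4 windows higher in HFSC. In Ltbp2, which binds latent TGF-beta, 9 of 13 windows were higher in HFSC.

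Some bulge genes differed in RNA without a 2-fold difference at the start. Fgf18, a growth factor that holds the follicle at rest, had 9.35 CPM in young EpdSC and 11.5 in young HFSC at its start, with RNA at 15.2 and 13.5 CPM in HFSC against 0 and 0.296 CPM in EpdSC. Bmp6 had 14.8 and 17.9 CPM at its start with an RNA log2 fold change of -4.86, and Wif1, a Wnt inhibitor, 7.18 and 7.83 CPM with -6.10. Of their windows, 1 was 4-fold higher in HFSC, 9687 bases outside Bmp6 (chr13:38510001-38510500, 0.0536 against 4.09 CPM). Krt15, a keratin used as a bulge marker, had 1 of 7 windows toward HFSC and RNA that did not pass (log2 fold change -0.21, adjusted p = 0.475).

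**Figure D4:**
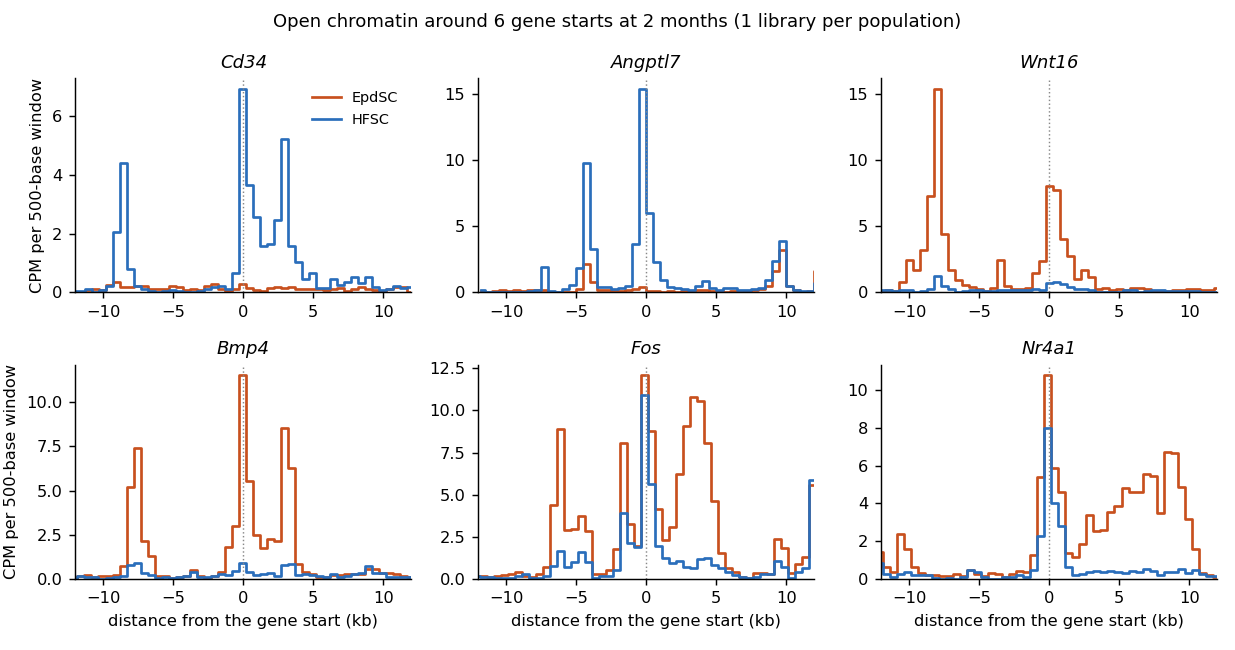
CPM per 500-base window (y axis) against distance from the gene start in kb along the gene's strand (x axis) for Cd34, Angptl7, Wnt16, Bmp4, Fos and Nr4a1 at 2 months, with 1 line per population and 1 library behind each. Cd34 and Angptl7 show a peak at the start in HFSC, Wnt16 and Bmp4 peaks in EpdSC at and before the start, and Fos and Nr4a1 a start open in both with windows beyond it open in EpdSC.

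Transcription factors of the epidermis leaned toward EpdSC with more exceptions. Of 211 windows at the 24 genes, 55 were 4-fold higher in EpdSC and 16 in HFSC. Of 11 starts, 4 were 2-fold higher in EpdSC and none in HFSC (median 0.27), and RNA was higher in EpdSC for 16 genes and in HFSC for 3. Grhl3, a grainyhead factor of barrier formation, had 17.01 CPM at its start in young EpdSC, 4.74 in young HFSC, 14.1 in aged EpdSC and 3.03 in aged HFSC, with 9 of 12 windows higher in EpdSC. Foxn1, a factor of keratinocyte differentiation, had 12.1, 2.90, 11.5 and 3.52 CPM. Cebpa had 7 of 12 windows toward EpdSC although its start differed by 1.33-fold, Klf5 4 of 7 and Zfp750 3 of 3. Rora, a nuclear receptor, carried both directions with 10 windows toward EpdSC and 3 toward HFSC.

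Prdm1, known from terminal differentiation, differed between the readouts, with 13.5 CPM at its start in young EpdSC against 6.34 in young HFSC and RNA at 0.441 and 0.757 CPM in EpdSC against 10.6 and 10.1 CPM in HFSC (log2 fold change -4.11 ± 0.37 SE, adjusted p = 6.61e-06). For Dlx3 a window 5617 bases outside the gene was 16.3-fold higher in EpdSC (8.73 against 0.535 CPM, chr11:95114001-95114500) while its RNA was higher in HFSC (-4.39).

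Genes of the interfollicular basal layer held 30 windows toward EpdSC and 8 toward HFSC of 148, with 4 and 0 of 12 starts (median 0.03) and 12 and 5 of 22 genes in RNA. Ly6a encodes Sca1, the other sort marker. Its most open window, chr15:74997001-74997500, had 141 counts in young EpdSC, 4 in young HFSC, 73 in aged EpdSC and 0 in aged HFSC, and at 3.78 CPM fell short of the minimum for comparison, with a ratio of 24.7-fold (9.44 to 92.0). Ly6d, its neighbour in the Ly6 family, had 7 of 10 windows toward EpdSC. The basal keratins had equal starts: Krt14 had 18.03 CPM in young EpdSC and 18.04 in young HFSC, and Krt5 30.9 and 36.6. In Krt14 4 of 18 windows were higher in EpdSC, the steepest 162 bases outside the gene (chr11:100202501-100203000) at 9.14 against 0.229 CPM. Calml3, a calmodulin-like protein, went against the list with 4 of 4 windows and its RNA toward HFSC (log2 fold change -6.97).

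Suprabasal and cornified envelope genes, which build the barrier, had 19 windows toward EpdSC and 4 toward HFSC of 57 and 7 against 0 of 16 starts (median 0.88), with 8 and 2 of 19 genes in RNA. Casp14, a caspase of cornification, had 25.3 CPM at its start in young EpdSC, 5.16 in young HFSC, 22.7 in aged EpdSC and 4.97 in aged HFSC. Tgm3, a transglutaminase, had 9.11, 1.80, 10.8 and 1.33 CPM, and Krt10, the keratin of the first suprabasal layer, 3.43, 0.497, 3.71 and 0.849 CPM. In each of these 3 the EpdSC libraries lay above the HFSC libraries at both ages. Flg, a late barrier gene, had 0.322 and 0.229 CPM at its start.

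The AP-1 and immediate early genes differed by less than 2-fold at every start tested and by more in windows beyond it. Of 225 windows at the 20 genes, 66 were 4-fold higher in EpdSC and 3 in HFSC, while none of 15 starts differed by 2-fold and their median log2 ratio was -0.08. Atf3 alone held 23 of the 66, and 13 of the 20 genes had at least 1. RNA was higher in EpdSC for 15 genes and in HFSC for 2. Fos had 27.0 CPM at its start in young EpdSC and 20.4 in young HFSC with 8 of 15 windows toward EpdSC, and its RNA was at 2513 and 2068 CPM in EpdSC against 235 and 94.0 CPM in HFSC. Fosb had 12.8 and 12.2 CPM at the start with 7 of 16 windows toward EpdSC, and Btg2, an antiproliferative gene, 27.9 and 24.3 CPM with 5 of 10. Nr4a1 had 8 of 19 windows toward EpdSC, but its RNA did not pass (log2 fold change 1.42, adjusted p = 0.0829 by edgeR). It did without the first young HFSC library (2.98, adjusted p = 0.000178) or the second young EpdSC library (1.92, adjusted p = 0.0192). The 2 HFSC values were 65.0 and 13.6 CPM. Maff and Ier3 went the other way, with RNA log2 fold changes of -1.58 and -1.92 and, for Maff, 2 windows toward HFSC.

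The Skint family, 11 genes in 1 stretch of chromosome 4, differed at the start as well as in windows. Of 11 starts, 9 were 2-fold higher in EpdSC and none in HFSC, with a median log2 ratio of 2.40, and 4 of 11 windows were 4-fold higher in EpdSC and 2 in HFSC. Skint1 had 14.0 CPM at its start in young EpdSC, 2.79 in young HFSC, 11.5 in aged EpdSC and 1.94 in aged HFSC. RNA was higher in EpdSC for 10 of 11 genes. Skint4 was the other, with 19.6 against 5.69 CPM at its start and RNA at 26.9 and 35.4 CPM in EpdSC against 89.2 and 104 CPM in HFSC (log2 fold change -1.63). The 2 HFSC windows lay near Skint10, and the family's near-identical members can share reads, so values of single members are uncertain.

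Several Wnt ligands had starts open in EpdSC. Of 19 starts in the Wnt pathway list, 7 were 2-fold higher in EpdSC and none in HFSC (median log2 ratio 0.39), and 33 windows of 133 were 4-fold higher in EpdSC against 21 in HFSC. RNA was higher in EpdSC for 17 of 31 genes and in HFSC for 9. Wnt16 had 19.6 CPM at its start in young EpdSC, 1.83 in young HFSC, 16.9 in aged EpdSC and 0.970 in aged HFSC, with 6 of 6 windows toward EpdSC. Wnt3 had 12.6, 1.30, 11.0 and 1.46 CPM in the same order, also with 6 of 6. Wnt3a (11.1 against 1.95 CPM), Wnt10b (8.25 against 0.764 CPM) and the receptor gene Fzd10 (21.6 against 5.20 CPM) were further starts higher in young EpdSC. The windows toward HFSC were most numerous at the coreceptor Lrp6 (5 of 10) and the secreted modulators Dkk3 (5 of 8) and Sfrp1 (3 of 7). The ligand gene Wnt6 had 2 toward HFSC and 1 toward EpdSC of 8, and the others toward HFSC lay at Fzd2, Fzd7, Lrp5 and Rspo1.

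In the BMP and TGF-beta pathway both directions occurred. Of 169 windows, 22 were 4-fold higher in EpdSC and 34 in HFSC, and of 22 starts 1 and 3 were 2-fold higher (median log2 ratio -0.23). The ligand Bmp4 was the start higher in EpdSC, with 22.6 CPM in young EpdSC, 1.95 in young HFSC, 26.2 in aged EpdSC and 2.18 in aged HFSC and 6 of 6 windows. The starts higher in HFSC were Grem1, Ltbp2 and Gdf10. RNA was higher in EpdSC for 6 of 31 genes and in HFSC for 17.

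The hedgehog pathway had 18 windows toward HFSC and 2 toward EpdSC of 78, with RNA higher in HFSC for 9 of 13 genes and in EpdSC for none. In Boc, a coreceptor, 5 of 13 windows were higher in HFSC. Basement membrane and integrin genes had 29 windows toward HFSC and 20 toward EpdSC of 210, led by Tnc, the matrix protein tenascin C (8 of 10), and Itgb8, an integrin that activates TGF-beta (4 of 6, with 10.0 against 31.4 CPM at the start). Itga5 carried 4 toward EpdSC and 3 toward HFSC. The Notch pathway had few, 3 toward EpdSC and 5 toward HFSC of 115. Among Hox genes, 3 of 37 windows were higher in HFSC and none in EpdSC, 2 of them at Hoxc13, a factor of the hair shaft, and the other inside Hoxb6 and within 10 kb of Hoxb5 and Hoxb7. Of 21 Hox starts, 5 were 2-fold higher in HFSC and 1 in EpdSC, with a median log2 ratio of -0.46. These starts were low, with a median of 2.06 CPM in young EpdSC and 2.98 in young HFSC. RNA was higher in HFSC for 15 of 33 Hox genes and in EpdSC for 1, against 13.1% and 13% of all genes tested. For basement membrane and integrin genes it was 11 and 3 of 30, and for the Notch pathway 6 and 6 of 20.

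Genes used by all cells served as a reference at the start. None of 18 starts of the 22 housekeeping genes differed by 2-fold, and their median log2 ratio was -0.04, which became 0.02 when the median ratio of shared windows was scaled to 1. Of 99 windows, 8 were higher in EpdSC and none in HFSC, and 7 of these 8 were at Actb, cytoplasmic actin, out of its 13. The steepest, 5025 bases outside Actb (chr5:142913001-142913500), had 7.15 CPM in young EpdSC, 0.267 in young HFSC, 5.67 in aged EpdSC and 0.364 in aged HFSC. In RNA 9 of the 22 genes were higher in EpdSC and none in HFSC, against 13% and 13.1% of all genes tested. None of the 12 starts of genes from tissues other than skin differed by 2-fold, and these summed to 10.8 CPM in EpdSC and 10.0 CPM in HFSC. The 20 genes of that list had 10 windows compared, of which 4 were 4-fold higher in EpdSC and none in HFSC.

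**Figure D5:**
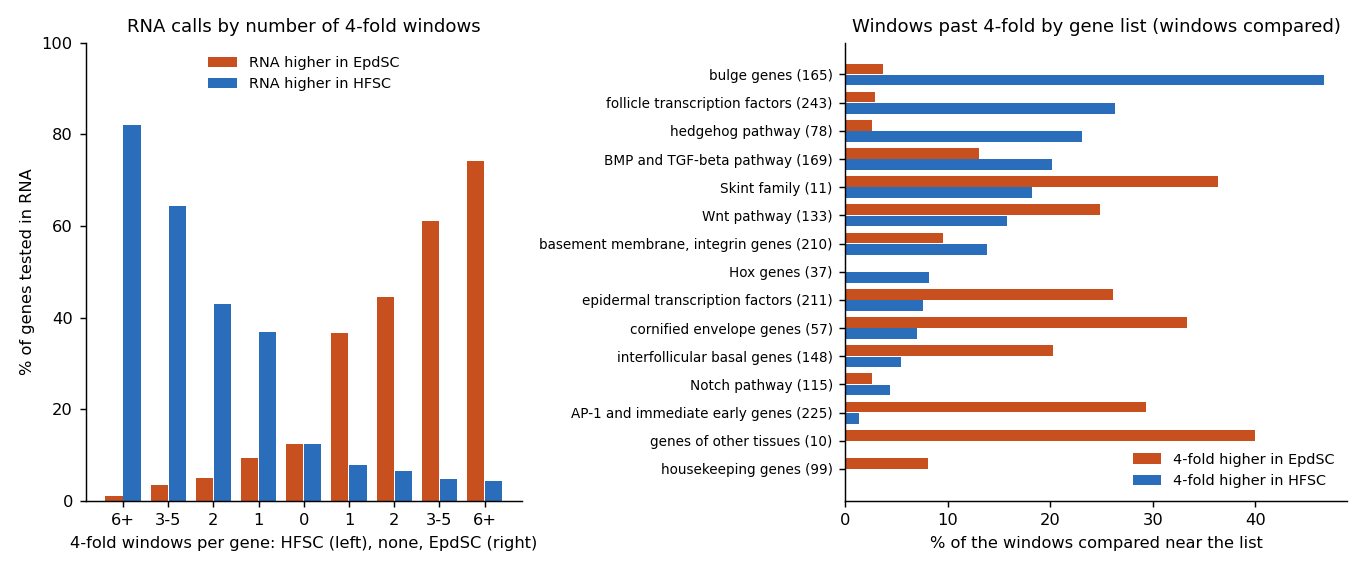
Left, percent of coding genes with RNA higher in EpdSC or in HFSC (y axis) by the number of windows 4-fold higher in EpdSC or in HFSC at the gene (x axis), from 12.4% at genes with none to 74.2% and 82.0% at 6 or more. Right, percent of the windows compared at the genes of each list that were 4-fold higher in EpdSC or in HFSC (x axis), with the number of windows beside the list's name.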

How the data were processed

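Open chromatin was read from the deposited tables of 4 ATAC-seq libraries, which hold whole-number counts per window, unnormalized, as the values show. RNA was read from the authors' deposited table of counts per gene for 8 libraries, with 25126808 to 35905505 counts in the young ones. Bowtie, STAR, Cell Ranger and the build mm10 are named without versions or roles per the submitters' processing notes. Removal of duplicate reads, any shift for the transposase and the strand of RNA counting were not given in the sources used for this work. Duplicates would narrow the counting intervals printed.

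CPM were computed here over windows starting at a multiple of 500 on chromosomes 1 to 19 and X. Log2 ratios added 0.5 counts to each library, windows needed 4 CPM in either young library and were called at 4-fold, and starts needed 20 counts and were called at 2-fold. Starts and sequences came from RefSeq GRCm38.p6 (26794 genes). RNA was tested with edgeR 4.0.16 in R 4.3.3 (quasi-likelihood, TMM, filtered on low counts, all 8 libraries in 1 fit with 4 groups, adjusted p under 0.05 by Benjamini-Hochberg). The fit was tested on simulated data, where 170 of 200 genes changed 4-fold were recovered. Other steps used Python 3.11.15, numpy 2.4.6, pandas 2.3.3 and SciPy 1.17.1, and figures matplotlib 3.10.9.

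The members and gene lists were chosen with earlier results of these data known. Genes named are members of those lists, the 10 starts and 10 windows with the largest ratios in each direction (starts of at least 100 counts, no predicted genes), the 6 longest regions and the 8 genes with most windows, of which 1 is not reported here. Alternatives were other minimums, scaling, thinning of the deeper library to the shallower, shifted windows, background subtraction, other start distances, DESeq2 1.42.0, other filters and fits for RNA, and leaving out each RNA library. Single-cell libraries were not used here.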

Additional observations from a re-analysis of the deposited data

Results flagged for a closer look

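Mitochondrial counts lay outside the windows compared and made up 1.55% of the counts of the young EpdSC library and 1.96% of the young HFSC library, with 1.89% and 2.51% in the aged pair. They were looked at because they are a signal in data the comparison did not use.

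Chromosome Y, which female mice lack, held 2531 counts in the young EpdSC library and 927 in the young HFSC library, or 0.00668% and 0.00347% of counts. With no control library, these were above the limit of 3 counts that a count of 0 allows.

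Among the 6855 windows 4-fold higher in young HFSC, 2 were at least 2-fold higher in EpdSC at 24 months. The window chr1:154112501-154113000 had 29 counts in young EpdSC, 122 in young HFSC, 26 in aged EpdSC and 4 in aged HFSC. The window chr17:71251001-71251500 had 39, 126, 59 and 9 counts in the same order. The difference between the ages was not tested, since there is 1 library per population and age, and the aged HFSC counts were 9 or fewer.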

How the results depend on the processing

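The minimum level decided most counts. With a minimum of 2 CPM, 16336 windows and 10281 regions were higher in EpdSC and 15198 and 8910 in HFSC, and with 8 CPM 1151 and 953 against 2124 and 1600. Within 1 kb of a start were 6.45% (2 CPM) and 8.81% (8 CPM) of EpdSC windows and 3.59% (2 CPM) of HFSC windows, and within 2500 bases 14.7% and 7.02%. The share of EpdSC windows on the same side at 24 months was 99.9% with the median ratio scaled to 1, and that of HFSC windows was 98.5% (2 CPM), 99.1% (8 CPM), 99.9% (scaled), 98.3% (deeper library thinned) and 98.5% (background subtracted). Starts with at least 100 counts gave 1556 and 601 in place of 2493 and 1810. The median start log2 ratio of genes higher in EpdSC RNA was 0.42 (scaled) and 0.26 (starts within 500 bases) and that of genes higher in HFSC RNA -0.13 (scaled). Leaving out each RNA library in turn gave 0.32 to 0.59 and -0.26 to -0.20 for these medians, and 1685 to 3216 and 1983 to 2745 for the RNA genes higher in EpdSC and HFSC. The other 83 values of these results moved by less than their interval or, for counts, stayed within 1.5 times, and none reversed under the alternatives run. For single genes, 1011 RNA values kept their side of the threshold, 11 lost it and 20 crossed it, and 13 start ratios moved beyond their interval, each with windows within 500 bases of the start.

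Whether the replicate numbers pair the RNA libraries was not settled. Deviations of same-numbered young libraries correlated at -0.077, but with 2 libraries per group this single value cannot decide it. With the replicate number as a block, 2956 genes were higher in EpdSC and 2814 in HFSC, 5461 of the 5600 calls were shared, and the median start log2 ratios were 0.32 and -0.19. Nr4a1 passed with this block (log2 fold change 1.56, adjusted p = 0.00882 by edgeR) and with no filter on low counts (1.45, adjusted p = 1.78e-14), but not by DESeq2 (1.42, adjusted p = 0.191). No paired analysis was possible for open chromatin because each population has 1 library.

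Depth limits single windows: 4 CPM was 33.0 counts in the aged HFSC library and 105 to 149 in the young libraries, so a ratio against a nearly empty window rests on a few counts. Without replicates, differences between the populations and between their library preparations cannot be told apart.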
